A study of Homo sapiens with 12 samples.

Results

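The genes described here are 9 regulators and markers of blood stem cells and leukemia stem cells: ERG, FLI1, MEIS1, PBX3, RUNX1, HLF, MECOM, CD34 and LYL1. They were chosen by name among the 17518 genes of the deposited table, ERG and MEIS1 because both fell strongly in SKM-1 cells after knockdown of NUDT21, and the others as related factors to set beside them. That choice used the SKM-1 knockdown, so the SKM-1 values of these genes are given as a description without a test. All 9 were listed in the table and 8 passed the filter on low counts, CD34 being the exception. Of the 8, ERG, MEIS1 and MECOM passed through their SKM-1 counts and FLI1 through its MUTZ-1 counts.

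RNA sequencing had been done on 12 libraries from 2 human cell lines, both labelled as myelodysplastic syndrome cells of marrow origin and grown with serum. In MUTZ-1 and in SKM-1, 3 libraries carried a control shRNA, a short hairpin RNA (genotype labelled WT), and 3 carried an shRNA against NUDT21 (genotype labelled shNUDT21). NUDT21 encodes a subunit of cleavage factor Im, which helps to set where the 3' end of an mRNA is cut, and the study asks what its loss does in these cells. Whether the replicates are separate cultures, and whether the lines with shRNA are clones or pools, is not given in the sources used here, and p-values therefore cover the spread between libraries alone, which may be technical.

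ERG and FLI1 are ETS transcription factors that bind enhancers of stem cell genes together with RUNX1, LYL1 and the related factors TAL1, LMO2 and GATA2, a group known as the heptad. MEIS1 and PBX3 are homeodomain proteins of the TALE class that bind DNA with HOX proteins, and MEIS1 with HOXA9 drives leukemia in mouse models. HLF, a PAR bZIP factor, and MECOM (EVI1), a zinc finger protein of the PRDM family, support self-renewal of blood stem cells, and CD34 is the surface antigen by which such cells are sorted.

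The counts per library summed to between 15843012 and 18426619. Levels are in TMM-scaled CPM (a count relative to the library's total), with the mean of 3 libraries and their SD, and comparisons between genes in FPKM, which also divides by gene length. In MUTZ-1, NUDT21 stood at 301, 297 and 301 CPM with the control shRNA and at 135, 136 and 142 CPM with the shRNA against it. In SKM-1 it stood at 322, 336 and 343 CPM in control and at 131, 132 and 129 CPM in knockdown libraries. The knockdown left 46.1% of the NUDT21 level in MUTZ-1 and 39.2% in SKM-1.

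The labelled origin was set against markers of blood lineages before the results. All 12 B lineage markers reached 1 CPM in MUTZ-1 control libraries, where they summed to 2410 to 2419 CPM, against 16.5 to 21.4 CPM in SKM-1 control libraries. Of 15 myeloid markers, 2 reached 1 CPM in MUTZ-1 control and 3 in SKM-1 control libraries, with sums of 7.07 to 12.2 CPM and 22.3 to 25.1 CPM. In SKM-1 knockdown libraries 4 of the 15 reached 1 CPM and the sum was 70.9 to 80.0 CPM, with CD33 at 8.55 CPM in control and 39.7 CPM in knockdown cells and LYZ at 9.11 and 25.3 CPM, while in MUTZ-1 knockdown libraries the sum was 6.90 to 7.89 CPM. MPO, a defining myeloid marker, had no count in the MUTZ-1 or the SKM-1 knockdown libraries and stood at 0.0181 CPM in SKM-1 control libraries. All 14 erythroid markers reached 1 CPM in SKM-1, where their sum went from 1312 to 1319 CPM in control to 4754 to 4978 CPM in knockdown libraries. In MUTZ-1, 3 of the 14 reached 1 CPM, and the sum, mostly TFRC, went from 743 to 763 CPM to 314 to 320 CPM. In the SKM-1 comparison the summed megakaryocyte markers (4 of 8 at 1 CPM or more) went from 119 to 122 CPM to 391 to 403 CPM, and the summed epithelial markers (4 of 5) from 373 to 382 CPM to 764 to 789 CPM. Most myeloid markers were thus under 1 CPM in both lines. The submitters' design text writes MUTZ-1 in place of SKM-1 on its first listing of both lines, so the line of each library was taken from its title and cell line label. Which line each library came from was not tested against any reference profile. In bulk RNA, a different share of cells of a kind and a different amount of RNA per cell cannot be told apart.

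Promoters are shown for ERG, MEIS1, RUNX1 and MECOM, the genes with a window free of exon bases that held a motif match. In SKM-1 knockdown cells the first pair was lower and the second pair higher than in control cells. The 2 HLF windows were also free of exon bases, held 0 matches and are not shown. Those of PBX3, LYL1 and CD34 held exon bases and are not shown either. RefSeq promoters (GRCh38.p14) were at hand for 8 of the 9 genes, with 14 starts in all, and FLI1 had no entry. Each sequence is the 250 bases before a start that contain no annotated exon base of GENCODE release 29, printed 5′ to 3′ on the gene's strand, with motif matches in capitals. ERG has 4 starts in the table and the third is shown, the one exon-free ERG window with motif matches, which lies within the gene, at chr21:38498505-38498754 on the minus strand. The MEIS1 window is chr2:66434875-66435124 on the plus strand, within the span of MEIS1. The RUNX1 window is chr21:34888700-34888949 on the minus strand, and the MECOM window, which lies upstream of the first of 3 starts and outside any gene, is chr3:169663713-169663962 on the minus strand.
ERG: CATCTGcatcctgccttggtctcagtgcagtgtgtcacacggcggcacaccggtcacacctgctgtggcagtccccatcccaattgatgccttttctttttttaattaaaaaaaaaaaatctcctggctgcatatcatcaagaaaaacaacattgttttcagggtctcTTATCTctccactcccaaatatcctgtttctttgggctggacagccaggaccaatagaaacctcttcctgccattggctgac
MEIS1: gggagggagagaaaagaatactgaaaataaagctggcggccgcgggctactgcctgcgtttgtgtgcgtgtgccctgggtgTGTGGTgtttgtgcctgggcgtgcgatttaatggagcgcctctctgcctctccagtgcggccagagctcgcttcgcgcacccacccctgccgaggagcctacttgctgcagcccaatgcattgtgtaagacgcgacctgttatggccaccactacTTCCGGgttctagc
RUNX1: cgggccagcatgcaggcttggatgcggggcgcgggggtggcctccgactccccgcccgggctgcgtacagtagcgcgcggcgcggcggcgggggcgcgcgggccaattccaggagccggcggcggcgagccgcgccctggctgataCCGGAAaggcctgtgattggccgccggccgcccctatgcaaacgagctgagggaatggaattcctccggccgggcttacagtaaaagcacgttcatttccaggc
MECOM: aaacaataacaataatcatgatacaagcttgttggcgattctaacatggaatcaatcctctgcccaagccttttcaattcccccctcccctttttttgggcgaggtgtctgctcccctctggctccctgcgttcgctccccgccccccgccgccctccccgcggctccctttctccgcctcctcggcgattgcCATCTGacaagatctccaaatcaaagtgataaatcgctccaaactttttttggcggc

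Short motifs were searched for on both strands. CCGGAA is the core of ETS sites and was taken for ERG and FLI1. AGATAA is the site of GATA factors. TGTGGT is that of RUNX proteins, and TGACAG that of MEIS proteins. CAGCTG and, separately, CATCTG are E-boxes, to which TAL1 and LYL1 bind with E proteins. The ERG window held AGATAA on the other strand, 82 to 77 bases before the start, and CATCTG at 250 to 245 bases, whereas the windows of the first and the second ERG start, also free of exon bases, held 0 matches. The MEIS1 window held CCGGAA on the other strand, 14 to 9 bases before the start, and TGTGGT at 169 to 164 bases. The RUNX1 window held CCGGAA at 104 to 99 bases and the MECOM window CATCTG at 57 to 52 bases before the start. Among 35116 promoters of the same length, 14.5% held CCGGAA, 9.17% AGATAA, 11.0% TGTGGT, 13.0% TGACAG, 14.0% CAGCTG and 12.2% CATCTG. These matches are descriptions of the letters, and the counts per gene do not tell which start was used.

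ERG (chromosome 21, 38380027 to 38661780, minus strand, GRCh38) was detected in SKM-1 at a level that was nearly gone in the knockdown cells. The SKM-1 control libraries held 1113, 1092 and 1035 ERG counts, or 62.5, 59.3 and 59.5 CPM. The knockdown libraries held 43, 38 and 23 counts, or 2.69, 2.27 and 1.43 CPM. All 3 knockdown libraries thus lay far below all 3 control libraries, with 3.54% of the control level left (log2 fold change -4.82 ± 0.11 SE). In MUTZ-1, ERG had 4 counts over the 3 control libraries and 3 over the 3 knockdown libraries. At that depth a change in MUTZ-1 was not detectable (count ratio 0.788, 95% exact binomial interval 0.115 to 4.66, counting error only). Between the control lines, the scaled ERG counts differed by a ratio of 787 (SKM-1 over MUTZ-1, counting interval 307 to 2889).

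FLI1 (chromosome 11, 128686535 to 128813267, plus strand), a close relative of ERG among ETS factors, showed the opposite line pattern. MUTZ-1 control libraries held 72.0, 73.2 and 71.4 CPM and MUTZ-1 knockdown libraries 70.6, 74.5 and 75.1 CPM. These groups overlapped (log2 fold change 0.02 ± 0.05; edgeR adjusted p = 0.760), and the 95% interval of the fold ran from 0.935 to 1.11. In SKM-1, FLI1 had 6 counts over the control and 7 over the knockdown libraries, so it was near background in both SKM-1 groups. Control SKM-1 held 6 FLI1 counts against 3761 in control MUTZ-1 (count ratio MUTZ-1 over SKM-1 645, exact binomial interval 296 to 1760), a description without a test since the gene passed the filter through MUTZ-1. One ETS gene of the pair was therefore detected at more than a few counts in each line. Exons of FLI1 share 162 bases with the antisense gene SENCR and 167 bases with AP001122.1, and without a stated strand setting their reads cannot be told apart.

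MEIS1 (chromosome 2, 66433452 to 66573869, plus strand) was lower together with ERG in SKM-1 knockdown cells but kept more of its level. Its SKM-1 control libraries stood at 64.3, 65.1 and 65.5 CPM and its knockdown libraries at 11.53, 10.5 and 10.2 CPM. The groups were far apart, with 16.5% of the control level left (log2 fold change -2.60 ± 0.08). In MUTZ-1, MEIS1 had 9, 4 and 2 counts in the control and 1, 2 and 0 counts in the knockdown libraries, so that the groups met at 2 counts. The fit called this fall (log2 fold change -2.12 ± 0.73; edgeR adjusted p = 0.0106; count ratio 0.210, exact binomial interval 0.0390 to 0.743). The call rested on single libraries: without MUTZ-1 control replicate 1 the edgeR adjusted p was 0.218, and without MUTZ-1 knockdown replicate 3 it was 0.0942, within a range of 0.00345 to 0.276 over all alternatives with a test. In a fit of the MUTZ-1 libraries alone, MEIS1 did not pass the low-count filter and had no test. MEIS1 exons share 439 bases with the antisense gene MEIS1-AS2 and 19 bases with MEIS1-AS3.

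**Figure D1:**
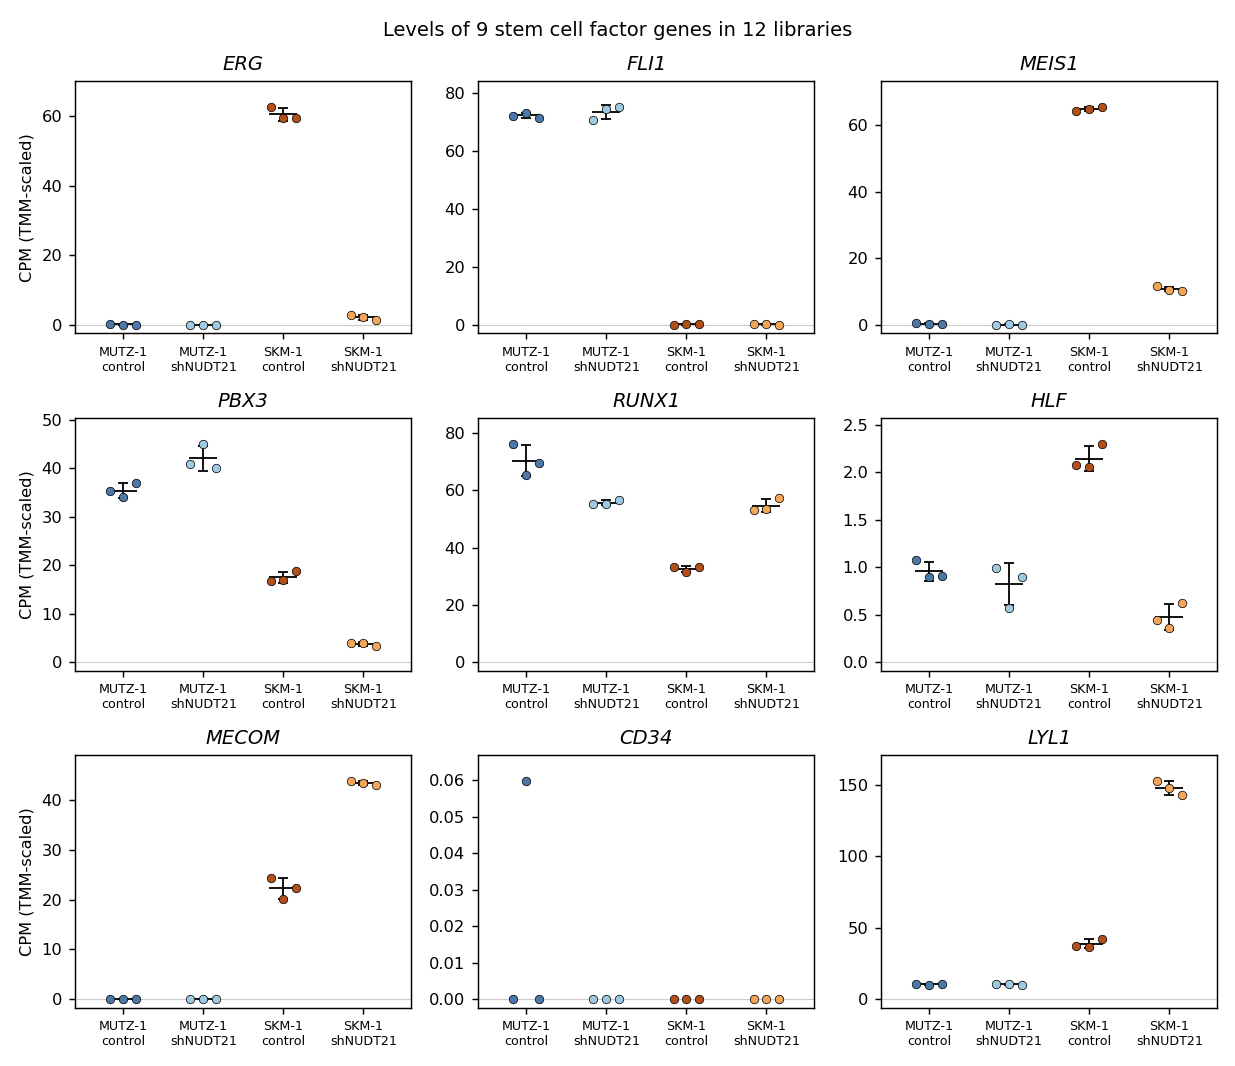
TMM-scaled CPM of the 9 genes in each of the 12 libraries (points) by group, with the mean and SD of 3 libraries (bars; CD34, with 1 count in all, has points only); each panel has its own linear axis. ERG and MEIS1 are near 0 in MUTZ-1 and lower in SKM-1 knockdown than in SKM-1 control libraries, FLI1 stands at 70.6 to 75.1 CPM in MUTZ-1 and near 0 in SKM-1, and LYL1 in SKM-1 knockdown stands at 143 to 152 CPM, above every other group.

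PBX3 (chromosome 9, 125747345 to 125967377, plus strand), a DNA-binding partner of MEIS1 and HOXA9, moved in opposite directions in the 2 lines. In MUTZ-1 it stood at 35.3, 34.0 and 36.9 CPM in control and at 41.0, 45.0 and 40.2 CPM in knockdown libraries. Every knockdown library was higher than every control library, and the rise passed the test (log2 fold change 0.25 ± 0.07; edgeR adjusted p = 0.000713). In SKM-1 it stood at 16.7, 16.9 and 18.7 CPM in control and at 3.82, 4.01 and 3.29 CPM in knockdown libraries, which left 21.3% of the control level (log2 fold change -2.23 ± 0.11). The control lines differed as well, with PBX3 lower in SKM-1 (log2 difference -1.02 ± 0.07; edgeR adjusted p = 2.49e-31).

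RUNX1 (chromosome 21, 34787801 to 36004667, minus strand), the core-binding factor subunit needed for the first blood stem cells, also moved in opposite directions, the other way round. Its MUTZ-1 control libraries stood at 76.1, 65.3 and 69.6 CPM and its MUTZ-1 knockdown libraries at 55.1, 55.2 and 56.7 CPM. The groups did not overlap and the fall passed the test (log2 fold change -0.34 ± 0.05; edgeR adjusted p = 2.05e-10). SKM-1 control libraries stood at 33.1, 31.3 and 33.1 CPM and SKM-1 knockdown libraries at 53.0, 53.6 and 57.3 CPM, a 1.68-fold higher level (log2 fold change 0.75 ± 0.05). After knockdown the mean RUNX1 levels of the 2 lines were 55.6 ± 0.920 CPM in MUTZ-1 and 54.6 ± 2.35 CPM in SKM-1, whereas control SKM-1 was lower than control MUTZ-1 (log2 difference -1.11 ± 0.05; edgeR adjusted p = 2.81e-54). The 124 tested genes of chromosome 21, which also carries ERG, had a median log2 fold change of 0.47 in SKM-1, the highest of any chromosome, and RUNX1 less that median came to 0.28. ERG less that median came to -5.29.

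LYL1 (chromosome 19, 13099033 to 13103161, minus strand), a basic helix-loop-helix factor of the heptad close to TAL1, had the highest level per length of the 9 genes in SKM-1. SKM-1 control libraries stood at 37.4, 36.2 and 42.3 CPM and knockdown libraries at 152, 148 and 143 CPM. The knockdown libraries lay well above the control libraries, 3.82-fold on average (log2 fold change 1.94 ± 0.05). In MUTZ-1 the control libraries at 10.3, 9.79 and 10.9 CPM and the knockdown libraries at 10.4, 10.2 and 10.1 CPM overlapped (log2 fold change -0.01 ± 0.09; edgeR adjusted p = 0.953; 95% interval of the fold 0.852 to 1.15). Control SKM-1 held more LYL1 than control MUTZ-1 (log2 difference 1.90 ± 0.07; edgeR adjusted p = 2.27e-68).

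MECOM (chromosome 3, 169083499 to 169663618, minus strand), whose overexpression marks a poor-risk group of myeloid leukemias, was, like ERG and MEIS1, seen in SKM-1 and hardly at all in MUTZ-1. SKM-1 control libraries stood at 24.3, 20.1 and 22.4 CPM and knockdown libraries at 43.8, 43.5 and 43.1 CPM. The knockdown libraries were all higher, 1.95-fold on average (log2 fold change 0.97 ± 0.08). Both MUTZ-1 groups held 1 count over 3 libraries. The control lines held 1192 counts in SKM-1 against 1 in MUTZ-1 (count ratio 1158, exact binomial interval 207 to 45763), again a description since the gene passed the filter through SKM-1. Counts per gene do not separate the long and short MECOM transcripts.

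HLF (chromosome 17, 55265012 to 55325065, plus strand) was rare in every group. SKM-1 control libraries held 37, 38 and 40 counts and SKM-1 knockdown libraries 7, 6 and 10 counts. The groups did not overlap, and 22.2% of the control level was left (2.15 ± 0.132 to 0.473 ± 0.134 CPM; log2 fold change -2.17 ± 0.35). In MUTZ-1 the 50 control and 41 knockdown counts overlapped between libraries (log2 fold change -0.22 ± 0.36; edgeR adjusted p = 0.672), and the 95% interval of the fold was wide, from 0.482 to 1.54. HLF was higher in control SKM-1 than in control MUTZ-1 by 1.15 ± 0.30 on the log2 scale (edgeR adjusted p = 0.000225).

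CD34 (chromosome 1, 207880972 to 207911402, minus strand) was not detectable at this depth in SKM-1 and at 1 count in MUTZ-1. The 12 libraries held a single CD34 count, in MUTZ-1 control replicate 2. A count of 0 over 3 libraries allows up to 3 counts, which is 0.0559 CPM in SKM-1 control and 0.0615 CPM in SKM-1 knockdown cells. The factors above were thus measured in cells with next to no CD34 mRNA.

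**Figure D2:**
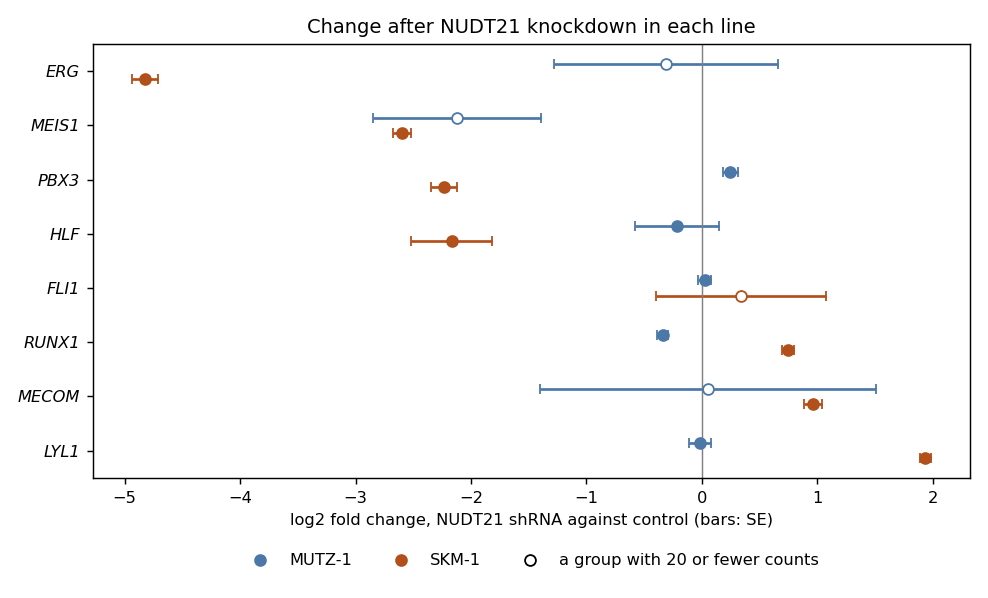
Log2 fold change after NUDT21 knockdown (horizontal axis, linear in log2) with its SE for the 8 genes that passed the low-count filter, in MUTZ-1 (blue) and SKM-1 (brown); open points mark comparisons in which a group held 20 or fewer counts. PBX3 and RUNX1 lie on opposite sides of 0 in the 2 lines, and ERG in SKM-1 lies farthest from 0 at -4.82.

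In SKM-1, 4 of the 8 genes were lower in all knockdown libraries (ERG, MEIS1, PBX3 and HLF), 3 were higher in all (RUNX1, MECOM and LYL1), and FLI1 overlapped. Over all 13625 genes tested, 42.2% were lower without overlap and 42.3% higher without overlap, and 84.4% were called at an edgeR adjusted p under 0.05 (42.1% up, 42.3% down). Since the genes were chosen with this comparison in view, no more is read from their count. In MUTZ-1, 3 of the 8 genes were called, PBX3 upward and RUNX1 and MEIS1 downward, against 49.0% of all genes tested, 24.4% upward and 24.6% downward. PBX3 was the 1 gene higher in every MUTZ-1 knockdown library and RUNX1 the 1 gene lower in every one, beside 26.9% and 26.7% of all genes tested. The upward share of all MUTZ-1 calls was 49.8% with TMM and 60.7% when scaling used library totals alone. Between the control lines, PBX3 and RUNX1 were called higher in MUTZ-1 and HLF and LYL1 higher in SKM-1, where 90.1% of all genes tested were called (48.8% higher and 41.4% lower in SKM-1). ERG and MEIS1 entered that comparison through the choice, and FLI1 and MECOM through the filter in 1 line, so their line differences stand as values without a test. Both knockdown comparisons use the control libraries that also enter the comparison of lines.

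Per length, the order of the 9 genes differed between groups. In MUTZ-1 control cells FLI1 led at 13.6 FPKM, followed by PBX3 at 11.8, RUNX1 at 7.79 and LYL1 at 6.69 FPKM, and the other 5 genes were at 0.158 FPKM or less. In MUTZ-1 knockdown cells PBX3 at 14.5 FPKM and FLI1 at 14.3 FPKM overlapped between libraries, with LYL1 at 6.85 and RUNX1 at 6.37 FPKM behind them. In SKM-1 control cells LYL1 led at 27.5 FPKM, followed by MEIS1 at 14.99, ERG at 10.2, PBX3 at 6.40, RUNX1 at 3.96 and MECOM at 3.26 FPKM, with no overlap between neighbours in that order. In SKM-1 knockdown cells LYL1 stood at 99.4 FPKM, while RUNX1 at 6.28 and MECOM at 6.02 FPKM took the next places, ahead of MEIS1 at 2.34, PBX3 at 1.28 and ERG at 0.339 FPKM. MEIS1 and ERG thus went from the second and the third place to the fourth and the sixth.

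The relatives of these genes were described with 10 lists (98 genes without the 9 above, 96 of them in the table and 79 tested). For the counts per list below, the shares over all genes tested were 42.1% up and 42.3% down in SKM-1. In MUTZ-1 those shares were 24.4% up and 24.6% down. In SKM-1 39 of the 79 rose and 33 fell, or 91.1% called against 84.4% of all genes, with a median log2 fold change of 0.13 against 0.00. In MUTZ-1 14 rose and 15 fell, or 36.7% called against 49.0%, with a median of 0.04 against 0.00. Between the control lines 41 were higher and 36 lower in SKM-1, some of them genes that passed the filter through 1 line, or 97.5% called against 90.1%, with a median of 0.20 against 0.11.

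Of 16 other ETS genes tested, 9 rose and 4 fell in SKM-1 (median log2 fold change 0.33), and 4 rose and 4 fell in MUTZ-1. ETV5, a target and relay of growth factor signals, fell in SKM-1 from 114 ± 3.06 to 28.5 ± 0.862 CPM (edgeR adjusted p = 8.70e-89) and rose in MUTZ-1 from 1.57 ± 0.0427 to 9.12 ± 1.41 CPM (edgeR adjusted p = 4.37e-39). ELK3 did the same on a smaller scale, from 51.3 ± 0.812 to 13.3 ± 0.441 CPM in SKM-1 and from 7.37 ± 1.10 to 10.8 ± 0.690 CPM in MUTZ-1. SPI1 (PU.1), the master factor of myeloid and B cell fates, rose in SKM-1 from 9.36 ± 0.167 to 26.2 ± 2.49 CPM, and ETV4 from 18.7 ± 1.44 to 50.4 ± 0.980 CPM. ETS1 and SPIB, which act in lymphocytes, set the lines apart as FLI1 did. ETS1 stood at 943 ± 17.97 CPM in control MUTZ-1 and 0.897 ± 0.239 CPM in control SKM-1, and SPIB at 233 ± 5.43 and 0.618 ± 0.164 CPM.

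Of the 10 partners and cofactors of the heptad, 8 rose and 2 fell in SKM-1 (median log2 fold change 1.06), and 1 rose and 3 fell in MUTZ-1. Beside them, 42.1% of all genes tested were called up and 42.3% down in SKM-1. LMO2, which bridges TAL1 or LYL1 to GATA factors, rose in SKM-1 from 11.7 ± 0.136 to 64.4 ± 2.21 CPM (edgeR adjusted p = 5.08e-63). CBFA2T3, a corepressor of such complexes, rose from 24.1 ± 0.382 to 118 ± 1.13 CPM (edgeR adjusted p = 1.15e-116). TCF4, an E protein, fell in SKM-1 from 182 ± 3.99 to 40.7 ± 3.20 CPM and rose in MUTZ-1 from 378 ± 10.3 to 439 ± 4.48 CPM. TAL1 had no count in control MUTZ-1 and stood at 42.8 ± 1.91 CPM in control SKM-1, and GATA2 went from 0.0765 ± 0.0861 CPM in the former to 59.8 ± 1.58 CPM in the latter. These rises in SKM-1 went with the higher sum of the erythroid markers given above, a list that also holds TAL1, and the part of that shift in them was not tested.

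Of the 4 genes of the RUNX and core-binding factor list, RUNX2 and RUNX3 fell in SKM-1 while CBFB, the shared partner subunit, rose. RUNX2, the bone and progenitor paralogue, went from 38.7 ± 1.68 to 1.07 ± 0.313 CPM (edgeR adjusted p = 3.69e-87) and RUNX3 from 25.04 ± 3.22 to 1.04 ± 0.621 CPM (edgeR adjusted p = 4.09e-41). CBFB went from 70.8 ± 2.22 to 82.0 ± 2.57 CPM. Per length, RUNX1 at 3.96 FPKM lay below RUNX2 at 6.97 and RUNX3 at 5.89 FPKM in SKM-1 control cells, and at 6.28 FPKM above RUNX2 at 0.182 and RUNX3 at 0.231 FPKM in SKM-1 knockdown cells. In MUTZ-1, CBFB fell from 150 ± 1.87 to 136 ± 5.75 CPM (edgeR adjusted p = 5.67e-05), and RUNX3 at 66.0 ± 2.29 and 60.1 ± 0.175 CPM did not pass the test (edgeR adjusted p = 0.0540).

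**Figure D3:**
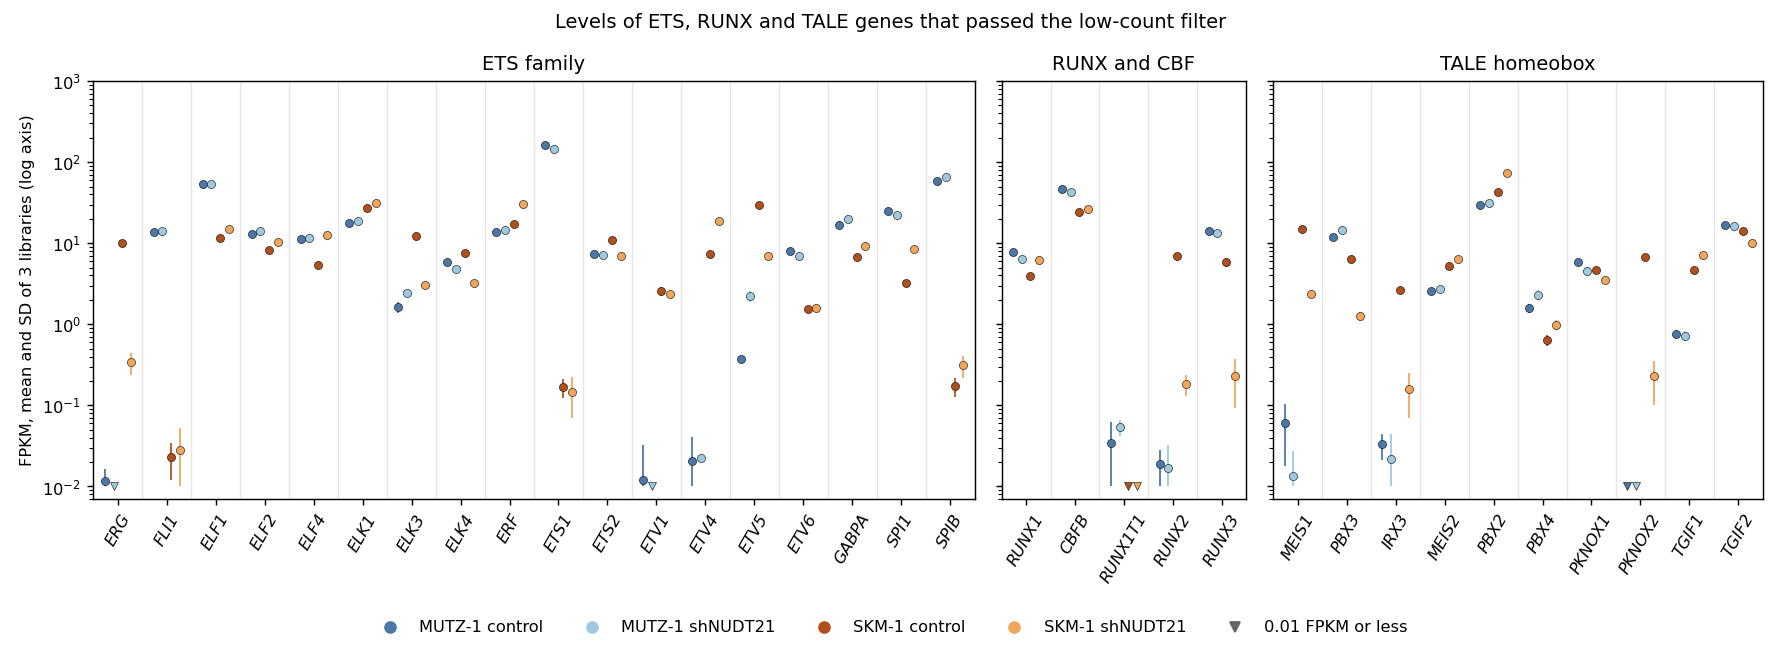
FPKM (logarithmic axis) of ETS, RUNX and TALE genes that passed the low-count filter in the 4 groups, as mean and SD of 3 libraries; triangles stand for means of 0.01 FPKM or less, and SD bars are cut at that level. ERG and FLI1 are each high in one line, and RUNX2, RUNX3 and PKNOX2 are lower in SKM-1 knockdown, as are ERG, MEIS1 and PBX3, while MEIS2 and PBX2 are higher.

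Of 9 other TALE homeobox genes tested, 4 rose and 5 fell in SKM-1 (median log2 fold change -0.34), and 1 rose and 2 fell in MUTZ-1. PKNOX2, a relative of MEIS1, fell in SKM-1 from 27.0 ± 1.46 to 0.946 ± 0.526 CPM and IRX3 from 7.02 ± 0.592 to 0.451 ± 0.253 CPM. PBX2, a relative of PBX3, rose from 132 ± 1.35 to 236 ± 1.80 CPM and TGIF1, a repressor, from 21.2 ± 0.411 to 34.3 ± 2.58 CPM. PKNOX1 fell in MUTZ-1 from 32.4 ± 1.62 to 24.04 ± 3.13 CPM (edgeR adjusted p = 7.36e-08).

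Of the HOX partners of MEIS1 and PBX3, HOXB9, named here after its values were seen, was the most abundant per length in SKM-1, where it rose from 68.3 ± 3.40 to 195 ± 3.24 CPM (edgeR adjusted p = 6.31e-94). Per length that was 27.9 ± 1.35 FPKM in control cells, beside 27.5 FPKM of LYL1, and 75.1 ± 1.37 FPKM in knockdown cells, second to LYL1 when set among the 9 genes. Of 10 HOXA and HOXB genes tested, 4 rose and 6 fell in SKM-1 (median log2 fold change -0.94). HOXB4 rose from 16.3 ± 1.45 to 49.9 ± 2.61 CPM and HOXB7 from 2.95 ± 0.236 to 9.99 ± 0.761 CPM. HOXB5 fell from 7.37 ± 0.0983 to 3.01 ± 0.280 CPM. The genes that rose were all HOXB genes. HOXA genes that fell lay near background in SKM-1 control cells, with HOXA3 at 0.617, HOXA5 at 0.633 and HOXA6 at 0.256 CPM. The count of falls and the median therefore lean on genes at few counts. HOXA9, the classical partner, stood at 1.30 ± 0.255 CPM in SKM-1 control and 0.0416 ± 0.0360 CPM in SKM-1 knockdown cells, and is named although its level lies under the limit set for examples. In MUTZ-1 edgeR called 0 of the 10, with HOXA3 alone at an unadjusted p under 0.05, and DESeq2 also called 0.

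Of 7 tested genes that HOXA9 and MEIS1 are known to activate, 4 rose and 3 fell in SKM-1 (median log2 fold change 0.37). SOX4, which blocks differentiation when overexpressed, fell from 157 ± 1.49 to 4.66 ± 0.472 CPM (edgeR adjusted p = 1.65e-146), and KIT, the stem cell factor receptor, from 49.4 ± 1.82 to 7.09 ± 1.17 CPM (edgeR adjusted p = 1.86e-74). MYB, a target with a leading role in MEIS1 and HOXA9 leukemia, rose instead from 56.7 ± 2.37 to 281 ± 1.70 CPM (edgeR adjusted p = 3.74e-140), and CCND3 from 84.3 ± 3.36 to 191 ± 3.93 CPM. Over all genes tested 42.1% were called up and 42.3% down in SKM-1. The counts of these few targets are near that background, and no direction of the targets is read from them. In MUTZ-1, where MEIS1 was at background, 3 of the 7 rose and 2 fell. MYB rose there from 103 ± 1.96 to 130 ± 2.62 CPM and CCND3 from 373 ± 14.1 to 434 ± 6.25 CPM, while MEF2C fell from 99.3 ± 4.09 to 87.5 ± 2.79 CPM (edgeR adjusted p = 3.90e-05) and CDK6 from 201 ± 3.14 to 192 ± 2.00 CPM (edgeR adjusted p = 0.0427).

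Among the relatives of HLF and the partners of MECOM, 2 of 3 and 2 of 2 tested genes fell in SKM-1. Of 3 PAR bZIP and related genes, DBP fell from 37.5 ± 1.72 to 3.84 ± 0.532 CPM and TEF from 15.8 ± 0.712 to 3.56 ± 0.392 CPM (edgeR adjusted p = 1.11e-78 and 9.21e-42), while NFIL3 at 14.2 ± 0.975 and 14.9 ± 1.46 CPM did not pass the test. In MUTZ-1 DBP rose from 8.49 ± 0.348 to 12.1 ± 0.949 CPM and TEF fell from 18.2 ± 0.834 to 14.7 ± 0.951 CPM. CTBP2, a corepressor that binds EVI1, fell in SKM-1 from 83.1 ± 1.74 to 5.70 ± 0.693 CPM. CTBP1 fell there from 266 ± 1.34 to 194 ± 4.53 CPM, while MECOM was higher. With 42.3% of all genes tested called down in SKM-1, nothing is read from a count of 2 partners. In MUTZ-1 edgeR called 0 of these 2, with 0 at an unadjusted p under 0.05 and 0 by DESeq2.

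Surface markers and the 17-gene stem cell score, a list published as a predictor of outcome in acute myeloid leukemia, were mixed. Of 9 surface markers tested, 3 rose and 5 fell in SKM-1 (median log2 fold change -1.72), with ITGA6, an integrin, from 25.9 ± 1.44 to 1.91 ± 0.10 CPM and CD44 from 6.71 ± 0.441 to 16.7 ± 2.19 CPM. ITGA6 rose in MUTZ-1 from 45.1 ± 0.548 to 64.7 ± 0.202 CPM (edgeR adjusted p = 2.53e-16). Of 12 score genes tested, without CD34, 7 rose and 4 fell in SKM-1 (median log2 fold change 0.32). DPYSL3 fell from 145 ± 1.36 to 3.64 ± 0.238 CPM, and ARHGAP22 rose from 7.57 ± 1.07 to 37.6 ± 2.64 CPM and AKR1C3 from 2.46 ± 0.200 to 13.2 ± 0.502 CPM. KIT, CDK6 and ADGRG1 belong to 2 lists each.

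**Figure D4:**
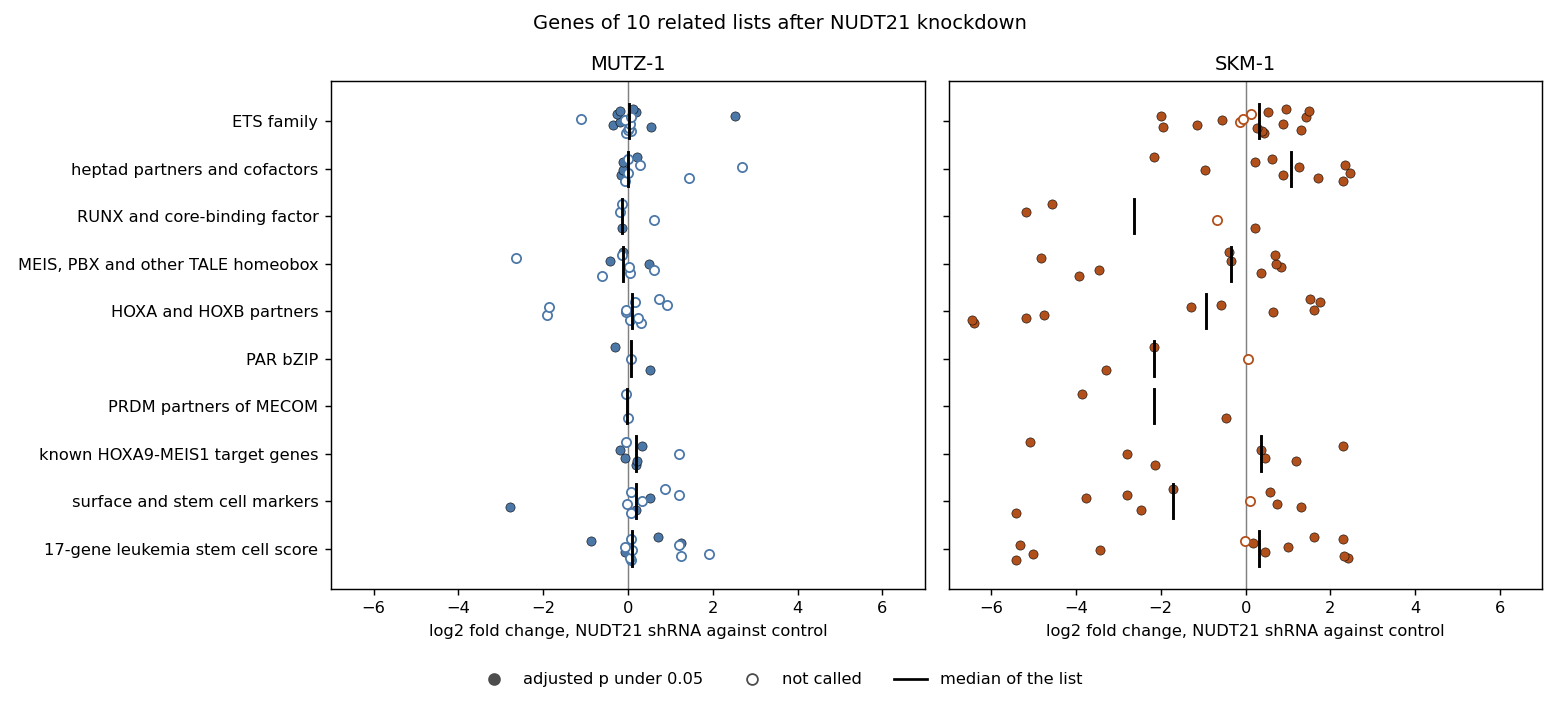
Log2 fold change after NUDT21 knockdown (horizontal axis) of every tested gene of the 10 related lists in MUTZ-1 (left) and SKM-1 (right); filled points were called at an adjusted p under 0.05, open points were not, and the black line is the median of a list. In SKM-1 most heptad partners lie to the right of 0, with a median of 1.06, and most points of MUTZ-1 lie near 0.

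The genes with a pattern most like that of ERG over the 12 libraries, by Pearson r of log2(CPM + 0.5) among 11787 genes with at least 5 CPM in a group, were GNAI1 (r = 0.9992), TDRD15, COL4A1, SDC2 and ZNF285. GNAI1 stood at 70.3 CPM in SKM-1 control and 2.42 CPM in SKM-1 knockdown cells, COL4A1 at 61.1 and 1.89 CPM, and neither reached 0.1 CPM in MUTZ-1. Those most like MEIS1 were NSMF (r = 0.998), VRK2, LPIN1, TENT5A and ZFHX4. The first 3 differed from MEIS1 in level, with NSMF at 71.1 CPM in MUTZ-1 control, 181 CPM in SKM-1 control and 130 CPM in SKM-1 knockdown cells, VRK2 at 38.0, 89.4 and 61.3 CPM, and LPIN1 at 26.2, 117 and 66.8 CPM. ZFHX4 stood at 0.0755, 40.1 and 7.99 CPM and TENT5A at 0.347, 31.8 and 7.33 CPM in the same groups. ERG and MEIS1 correlated with each other at r = 0.951, which put MEIS1 at rank 885 for likeness to ERG. The 12 points share 4 groups, so that these values mostly describe the 4 group means.

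The genes beside ERG on the chromosome moved in both directions in SKM-1. Of 7 tested genes within 1000 kb of ERG, 3 rose and 4 fell. Over all genes tested 42.1% were called up and 42.3% down in SKM-1, so these counts are near the background. KCNJ6 and KCNJ15, potassium channel genes, went from 4.71 to 0.0406 CPM and from 2.25 to 0.0199 CPM. ETS2, an ETS gene 144 kb from ERG, went from 76.9 ± 1.08 to 52.0 ± 2.87 CPM, whereas PSMG1, a proteasome assembly factor 522 kb away, went from 69.6 to 176 CPM. Near MEIS1 the only gene tested, ETAA1, went from 45.9 to 24.1 CPM, and of 6 genes near RUNX1 4 rose and 2 fell.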

How the data were processed

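Total RNA had been isolated with TRIzol and made into libraries with the TruSeq Stranded mRNA kit, per the labels' protocols. Per the submitters' processing notes, the tools were fastp, HISAT2 and HTSeq on build GRCh38; for their versions, the annotation and the strand setting the sources used here give nothing. The authors deposited raw read counts per gene and a table of FPKM values of the same 12 libraries, which were used for levels between genes and for alternatives on a log2 scale. The 9 genes and the lists were chosen with earlier results of these data known.

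Counts were fitted with edgeR 4.0.16 in R 4.3.3 (filterByExpr, 13625 genes kept; TMM; robust quasi-likelihood test; 1 fit of 12 libraries with a mean per group, 8 residual degrees of freedom). Benjamini-Hochberg adjustment ran over all genes tested, with 0.05 as threshold. SE was obtained from the log2 fold change and the root of F. Intervals of count ratios are exact binomial at 95%, and the limit of a count of 0 is 3 counts over a group. The fit was tested on counts simulated from its own estimates, for the MUTZ-1 comparison alone and with changed genes at 5 CPM or more. That does not cover the other comparisons, genes at few counts or replicates that may be technical. Alternatives used DESeq2 1.42.0, limma 3.58.1, other scaling, no filter, each library left out and a replicate block. Named genes are the 9, NUDT21, up to 2 per direction of each list and comparison with the largest called change, at least 5 CPM and no overlap, and the 5 most like ERG and MEIS1. Neighbours, HOXB9, the HOXA genes and the lineage markers given by name were named after their values were seen. Positions come from GENCODE release 29, to which 97.74% of tested genes matched, and promoters from RefSeq. The labels name no batch. Values of 1 gene of the lists are not reported here, although list counts include it.

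Markers that are given as sums in the report cover B lineage, myeloid, erythroid, megakaryocyte and epithelial genes. Of the remaining marker lists in SKM-1 control and knockdown libraries, T cell markers summed to 3.79 to 4.23 CPM and 3.19 to 4.31 CPM, endothelial markers to 75.2 to 81.2 CPM and 105 to 114 CPM (mostly EGFL7), and fibroblast markers to 56.8 to 62.4 CPM and 13.6 to 16.9 CPM.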

Additional observations from a re-analysis of the deposited data

Results flagged for a closer look

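PBX3 and RUNX1 moved in opposite directions in the 2 lines, with every knockdown library on one side of every control library. The PBX3 log2 fold change in SKM-1 minus that in MUTZ-1 was -2.48, from 0.25 ± 0.07 in MUTZ-1 and -2.23 ± 0.11 in SKM-1. The same difference for RUNX1 was 1.09, from -0.34 ± 0.05 in MUTZ-1 and 0.75 ± 0.05 in SKM-1. Neither difference was tested, because it contains the SKM-1 comparison by which the genes were chosen.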

How the results depend on the processing

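The log2 fold changes of the 8 genes in the 3 comparisons were recomputed in 460 combinations of gene, comparison and alternative; none reversed a call. In 428 the value kept its side of the threshold or, where no test was made, moved by at most slightly more than its SE. The FLI1 and MECOM differences between control lines were sorted here by the adjusted p of the fit. As both genes passed the filter through their high line, those cases carry no weight as tests. In 29 an untested value moved by more but kept its sign. Over the alternatives, the untested SKM-1 change ran from -5.29 to -3.06 for ERG, -2.68 to -2.26 for MEIS1 and -2.32 to -1.70 for PBX3. It ran from -2.41 to -0.36 for HLF, 0.28 to 0.76 for RUNX1, 0.72 to 1.04 for MECOM and 1.63 to 2.00 for LYL1. FLI1, at few counts there, ran from -0.26 to 0.90. The PBX3 rise and the RUNX1 fall in MUTZ-1 stayed called in all 19 alternatives with a test (highest adjusted p 0.00897 and 0.00172), as did the PBX3, RUNX1, HLF and LYL1 differences between control lines in all 18. The MEIS1 call in MUTZ-1 was lost in 3 of 18 with a test, the library omissions given above and log2(FPKM + 1) with limma (adjusted p = 0.276). The pseudocount shrinks its change to -0.06, and elsewhere the cause was not tested. With the MUTZ-1 libraries fitted alone, MEIS1 failed the low-count filter, so that no call could be made. Scaling by library totals moved the median of all genes between control lines by 0.136 on the log2 scale. The replicate numbers did not pair the samples (correlations of same-numbered deviations between -0.056 and 0.026). With the replicate block, 6612 genes were called in MUTZ-1, 11461 in SKM-1 and 12243 between control lines. Few counts limit ERG, MECOM and MEIS1 in MUTZ-1, FLI1 in SKM-1 and CD34 in both lines.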
